A study of Mus musculus with 16 samples.

Results

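The 10 genes described here encode the 4 Notch receptors of the mouse (Notch1, Notch2, Notch3 and Notch4), 5 of their ligands (Dll1, Dll3, Dll4, Jag1 and Jag2) and Hes5, a repressor that is a direct target of the pathway. They were taken by name out of 25755 genes with a curated RefSeq transcript. For each of them, the peaks of H3K4me3, H3K27me3 and Suz12 were collected up to 2500 bp before or after a transcription start and over the gene body, in cells named LIF-ESCs and Myc-ESCs. Both cultures are R1 mouse embryonic stem cells (ESCs) that carry MycER, a Myc protein (T58A mutant) fused to the ligand-binding part of the estrogen receptor, which 4-hydroxytamoxifen (OHT) switches on. LIF-ESCs received LIF at 100 units per ml and no OHT, Myc-ESCs received 50 nM OHT and no LIF, and both grew without feeder cells in serum. The absence of LIF and the presence of OHT came together in Myc-ESCs, so their effects cannot be told apart. MycER lines were single clones, and the labels do not name the clone used.

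A Notch receptor is cut by proteases once a Delta-like or Jagged ligand on a neighbouring cell pulls on it, and its intracellular part then enters the nucleus, where it binds the DNA-binding protein Rbpj with a Mastermind coactivator and switches on Hes and Hey repressors. In ESCs, many genes of this kind are held in a bivalent state, in which H3K4me3, a mark of open CpG-rich promoters, lies beside H3K27me3, a repressive mark. H3K27me3 is deposited by Polycomb repressive complex PRC2, of which Suz12 is a core subunit. ChIP-sequencing reads the DNA that an antibody pulls down, and a peak is a stretch where reads pile up beyond the background. The authors deposited 1 list of scored peaks per antibody in each culture. The score reflects the p-value of a peak on a log scale, and it grows with both enrichment and sequencing depth.

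Behind the lists stand 16 libraries, of which 4 are inputs and 2 belong to each antibody in each culture, but the lists are not divided by library and hold no counts. The depth is therefore unknown, replicate error cannot be given, and no test was run. The H3K27me3 lists were of very unequal length, with 3120 peaks for LIF-ESCs and 16717 for Myc-ESCs. The Suz12 lists held 11305 and 13907 peaks, and the H3K4me3 lists 32469 and 30345. A gene called in Myc-ESCs only can thus reflect a longer list as well as a difference in chromatin, and these cannot be told apart. As a check of the cell label, H3K4me3 lay at the start sites of 8 of 8 pluripotency markers in both cultures. It also lay at 4 of 4 neural and 4 of 4 primitive endoderm markers in both, and at 3 and 4 of 6 fibroblast markers in LIF-ESCs and Myc-ESCs. Of all genes, 62.7% and 63.9% had H3K4me3, so this mark by itself does not separate cell types. Suz12 lay at 1 (Esrrb) and 2 (Esrrb and Klf4) of 8 pluripotency markers, beside 12.2% and 14.7% of all genes. It lay at 4 of 4 neural and 4 of 4 primitive endoderm markers in both cultures, and at 1 and 3 of 6 fibroblast markers. Among pluripotency markers, only Esrrb had H3K27me3, in Myc-ESCs. This mark lay at 3 of 4 neural markers in both cultures, and at 2 and 4 of 4 primitive endoderm markers. It lay at 0 and 1 of 6 fibroblast markers, beside 3.84% and 10.8% of all genes. In Myc-ESCs the top H3K4me3 score was 804.29 at Nanog, 721.83 at Esrrb, 1622.78 at Klf4 and 2751.32 at Dppa4. It was 3100 at these genes in LIF-ESCs, and in both cultures at the other pluripotency markers. Suz12 scored 459.7 and 3100 at Esrrb. Only 1 list per condition exists, so shares carry no error.

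The sequences under H3K27me3 peaks were short, and 6 of them are shown here as RefSeq has them in GRCm38.p6, 5′ to 3′ on the strand of the gene, with every CpG dinucleotide in capitals. The first pair are the H3K27me3 peaks of Notch1 and Jag1, which were called in Myc-ESCs only, at chr2:26502833-26503058 (minus strand, intron 1) and chr2:137115170-137115320 (minus strand, intron 2). The third is the LIF-ESC peak of Dll4 at chr2:119327527-119327743 (plus strand, intron 3), where a peak was called in both cultures. The next pair show Dll1, whose peak lay in intron 3 in LIF-ESCs (chr17:15374088-15374242, minus strand), while of its 2 Myc-ESC peaks the higher lay upstream of the gene (chr17:15377252-15377518, minus strand) and the other, not printed, across intron 2 and exon 3. The sixth holds the central 300 of the 317 bases of the upstream Hes5 peak, called in Myc-ESCs only, at chr4:154959316-154959615 (plus strand).
Notch1, Myc-ESCs: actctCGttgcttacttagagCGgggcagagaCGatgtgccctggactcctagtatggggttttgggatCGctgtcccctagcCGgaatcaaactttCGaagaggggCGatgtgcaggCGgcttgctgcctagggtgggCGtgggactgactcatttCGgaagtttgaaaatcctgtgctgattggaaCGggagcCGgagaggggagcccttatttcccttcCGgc
Jag1, Myc-ESCs: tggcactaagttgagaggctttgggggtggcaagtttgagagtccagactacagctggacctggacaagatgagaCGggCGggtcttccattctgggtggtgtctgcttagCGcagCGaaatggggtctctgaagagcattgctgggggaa
Dll4, LIF-ESCs: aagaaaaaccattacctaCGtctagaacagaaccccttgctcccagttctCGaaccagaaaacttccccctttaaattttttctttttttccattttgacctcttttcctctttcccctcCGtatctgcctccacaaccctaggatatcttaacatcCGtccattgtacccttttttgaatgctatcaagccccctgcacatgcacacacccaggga
Dll1, LIF-ESCs: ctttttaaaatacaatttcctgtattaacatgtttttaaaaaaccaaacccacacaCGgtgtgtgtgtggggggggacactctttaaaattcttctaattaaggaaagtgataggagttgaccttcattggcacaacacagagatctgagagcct
Dll1, Myc-ESCs: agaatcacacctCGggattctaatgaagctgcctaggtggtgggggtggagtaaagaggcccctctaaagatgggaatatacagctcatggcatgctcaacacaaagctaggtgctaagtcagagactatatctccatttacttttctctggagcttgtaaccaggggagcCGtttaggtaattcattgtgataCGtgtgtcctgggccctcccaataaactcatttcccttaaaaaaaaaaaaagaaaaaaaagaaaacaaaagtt
Hes5, Myc-ESCs: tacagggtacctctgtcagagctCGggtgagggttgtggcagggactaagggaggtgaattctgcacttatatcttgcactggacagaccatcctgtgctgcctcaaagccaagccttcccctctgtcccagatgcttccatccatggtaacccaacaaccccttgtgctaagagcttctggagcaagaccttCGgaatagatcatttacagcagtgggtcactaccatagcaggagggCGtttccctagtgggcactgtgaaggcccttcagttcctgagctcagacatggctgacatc
The Notch1 peak held 13 CpG in 226 bases, which is 0.734 of the number its C and G content predicts. The Jag1 peak held 4 CpG in 151 bases, or 0.392 of the predicted number. The intronic Dll4 peak had a GC content of 44.2% and 4 CpG in 217 bases, and the intronic Dll1 peak 38.1% and 1 CpG in 155 bases. The upstream Dll1 peak held 3 CpG in 267 bases, and the other Myc-ESC Dll1 peak, in the gene, 17 in 147 bases, or 0.933 of the predicted number. The upstream Hes5 peak held 3 CpG in 317 bases and the Hes5 peak in exon 3 held 5 in 123. Over these 8 peaks, which leave out the Myc-ESC peaks of Dll4 and differ in length, the count thus ran from 1 to 17 CpG.

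H3K4me3 lay at the start sites of all 10 genes in LIF-ESCs, where 62.7% of all genes had it, and at 9 of 10 in Myc-ESCs (63.9% of all genes). H3K27me3 lay at 2 of them in LIF-ESCs, both of them Delta-like ligands (Dll1 and Dll4), against 3.84% of all genes. In Myc-ESCs it lay at 5 genes (Notch1, Dll1, Dll4, Jag1 and Hes5), against 10.8% of all genes. Suz12 lay at 4 genes in LIF-ESCs (Dll1, Dll4, Jag1 and Hes5; 12.2% of all genes) and at the same 4 genes and Notch1 in Myc-ESCs (14.7% of all genes). The other 5 genes, Notch2, Notch3, Notch4, Dll3 and Jag2, carried neither H3K27me3 nor Suz12 at the start site in either culture.

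**Figure D1:**
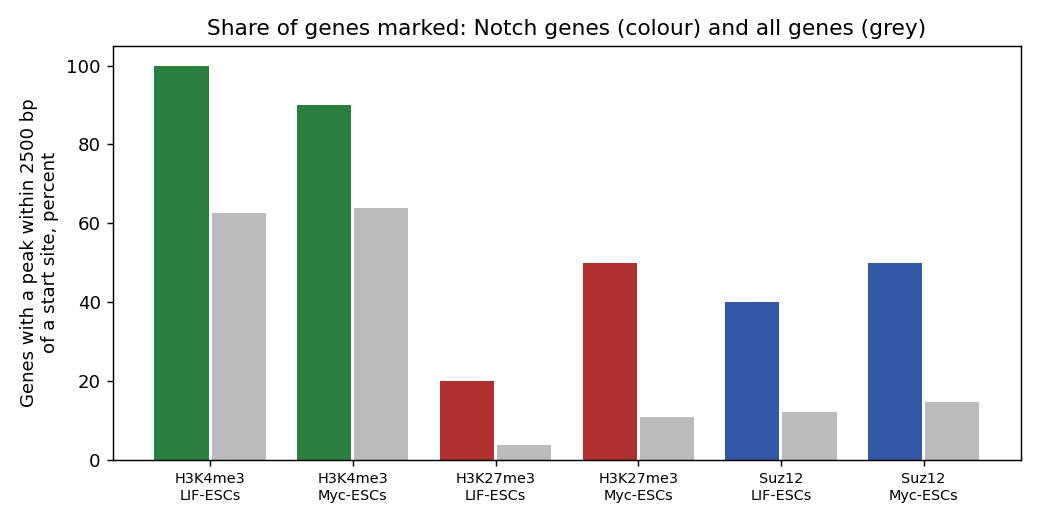
Percent of genes with a peak within 2500 bp of a start site, for the 10 Notch genes (coloured bars) and all 25755 genes (grey bars), in each of the 6 peak lists. The coloured bar is above the grey bar in every list, and H3K27me3 was called at 2 of 10 Notch genes in LIF-ESCs and at 5 of 10 in Myc-ESCs.

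In the lists as deposited, the number of genes whose call differed was highest for H3K27me3. Notch1, Jag1 and Hes5 had H3K27me3 in Myc-ESCs only, and 7.69% of all genes did. None of the 10 genes had it in LIF-ESCs only, and 0.738% of all genes did. With the Myc-ESC list shortened to the 3120 peaks of highest score, the length of the LIF-ESC list, Hes5 was the 1 gene left with H3K27me3 in Myc-ESCs only, a number no larger than for Suz12 or H3K4me3. This cut left only Myc-ESC peaks scoring 100 or more, beside LIF-ESC peaks of any score. No share of all genes is given for this setting. Notch1 alone had Suz12 in Myc-ESCs only (3.83% of all genes) and no gene had it in LIF-ESCs only (1.29% of all genes). H3K4me3 was called in LIF-ESCs only at Notch4 (1.20% of all genes) and in Myc-ESCs only at none (2.36% of all genes). The 3 genes with H3K27me3 in Myc-ESCs only all had H3K4me3 and, in at least 1 culture, Suz12. Among the 3173 genes with H3K4me3 and Suz12 in either culture and without LIF-ESC H3K27me3, 52.2% had H3K27me3 in Myc-ESCs. Conversely, none of the 5 Notch genes without Suz12 had H3K27me3, as was true of 97.4% of the 12768 genes with H3K4me3 and without Suz12. Of all 16769 genes with H3K4me3, 25.8% had H3K27me3 or Suz12 in either culture, beside 5 of these 10.

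The length of DNA under peaks within the start window could be compared for genes marked in both cultures. H3K4me3 covered more bases in Myc-ESCs at 8 of 9 genes, Notch1 being the exception, and at 64.9% of the 15852 genes marked in both cultures. The median ratio of Myc-ESC to LIF-ESC length was 1.19 over these 9 genes and 1.04 over all 15852. Suz12 covered more bases in Myc-ESCs at 3 of 4 genes, Dll1 being the exception, and at 81.3% of 2806 genes, with a median ratio of 1.52 for the 4 genes and 1.38 for all. H3K27me3 covered more bases in Myc-ESCs at both Dll1 and Dll4, and at 89.2% of 799 genes. For Suz12 and H3K27me3, the Notch genes thus went the way of most genes that carried these marks in both cultures.

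**Figure D2:**
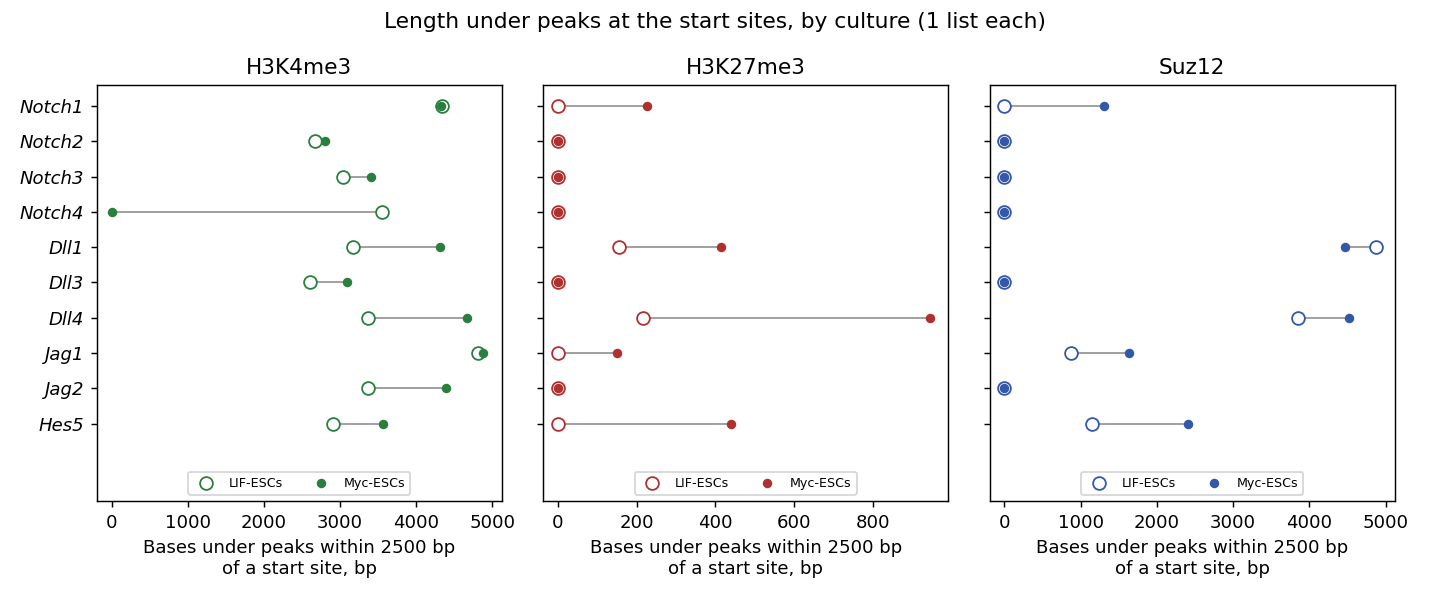
Bases under H3K4me3, H3K27me3 and Suz12 peaks within 2500 bp of a start site of each Notch gene, in bp, in LIF-ESCs (open circles) and Myc-ESCs (filled circles), 1 peak list each. H3K27me3 reached 945 bp at Dll4 in Myc-ESCs, Notch4 went from 3557 bp of H3K4me3 to none, and 5 genes are at 0 for both H3K27me3 and Suz12.

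Among the receptors, Notch1 stood apart. Notch1, a receptor with broad roles from neural progenitors to T cells, lies on chromosome 2 (26457902 to 26503822, minus strand, 34 exons). Its start site carried an H3K4me3 peak of 5306 bp in LIF-ESCs against 4616 bp in Myc-ESCs, and the bases inside the window were nearly equal, at 4340 and 4329 bp. The score of the LIF-ESC peak was 3100, a value that 4006 peaks of that list share, and the score of the Myc-ESC peak was 2931.42. No Suz12 peak was closer to the start than 298080 bp in LIF-ESCs. In Myc-ESCs, 4 Suz12 peaks covered 1309 bp between 190 and 1867 bp downstream of the start. The highest of these scored 390.11, above 80.4% of the Suz12 peaks of the list. The 226-bp H3K27me3 peak printed above lay at 764 to 989 bp in intron 1, inside the 625-bp Suz12 peak, with a score of 96.64. The nearest LIF-ESC H3K27me3 peak was 300012 bp away. The H3K27me3 call was absent from a Myc-ESC list as short as that of LIF-ESCs and at a score limit of 100, while Suz12 was called at 5 genes, Notch1 included, in both settings. Notch1 was thus the only one of the 10 genes at which H3K27me3 and Suz12 were both called in Myc-ESCs only, a pattern of calls shared by 317 genes (1.23% of all). The H3K4me3 peak at this start also covers the start site of Gm35978, so its H3K4me3 cannot be assigned to Notch1 alone.

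Notch2, Notch3 and Notch4 were free of Suz12 and H3K27me3 over their windows and bodies. At Notch2, a widely expressed receptor, H3K4me3 covered 2676 bp (LIF-ESCs) and 2800 bp (Myc-ESCs), with scores of 1919.21 and 1262.13. The nearest Suz12 peaks were 125248 and 124461 bp from its start. At Notch3, the receptor of vascular smooth muscle, H3K4me3 covered 3041 and 3400 bp with scores of 497.26 and 592.11. A further H3K4me3 peak in intron 2 of Notch3 scored 544.2 and 583.37, above the start peak in LIF-ESCs and below it in Myc-ESCs. The nearest Suz12 peak was 22111 bp (LIF-ESCs) and 225658 bp (Myc-ESCs) from the Notch3 start. H3K27me3 was farther still from both genes, at 815867 bp or more from Notch2 and 897502 bp or more from Notch3.

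Notch4, a receptor known mainly from endothelium, was the only gene without H3K4me3 at its start in Myc-ESCs. In LIF-ESCs a single peak of 3557 bp with a score of 719.1 spanned its start, from 1683 bp before to 1873 bp after it, and no Myc-ESC peak overlapped it. At the other end of the gene, over exons 27 to 30, H3K4me3 was called in both cultures. That peak was 3330 bp long with a score of 2355.49 in LIF-ESCs and 3390 bp long with a score of 2245.1 in Myc-ESCs. The start site of the neighbouring gene Gpsm3 lies 673 bp beyond the LIF-ESC peak, and GENCODE places 4 starts of shorter Notch4 transcripts within the Myc-ESC peak. With GENCODE transcripts in place of RefSeq, Notch4 therefore counted as marked in both cultures. The pattern of Notch4, H3K4me3 in LIF-ESCs only and no other mark, was shared by 279 genes (1.08% of all).

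**Figure D3:**
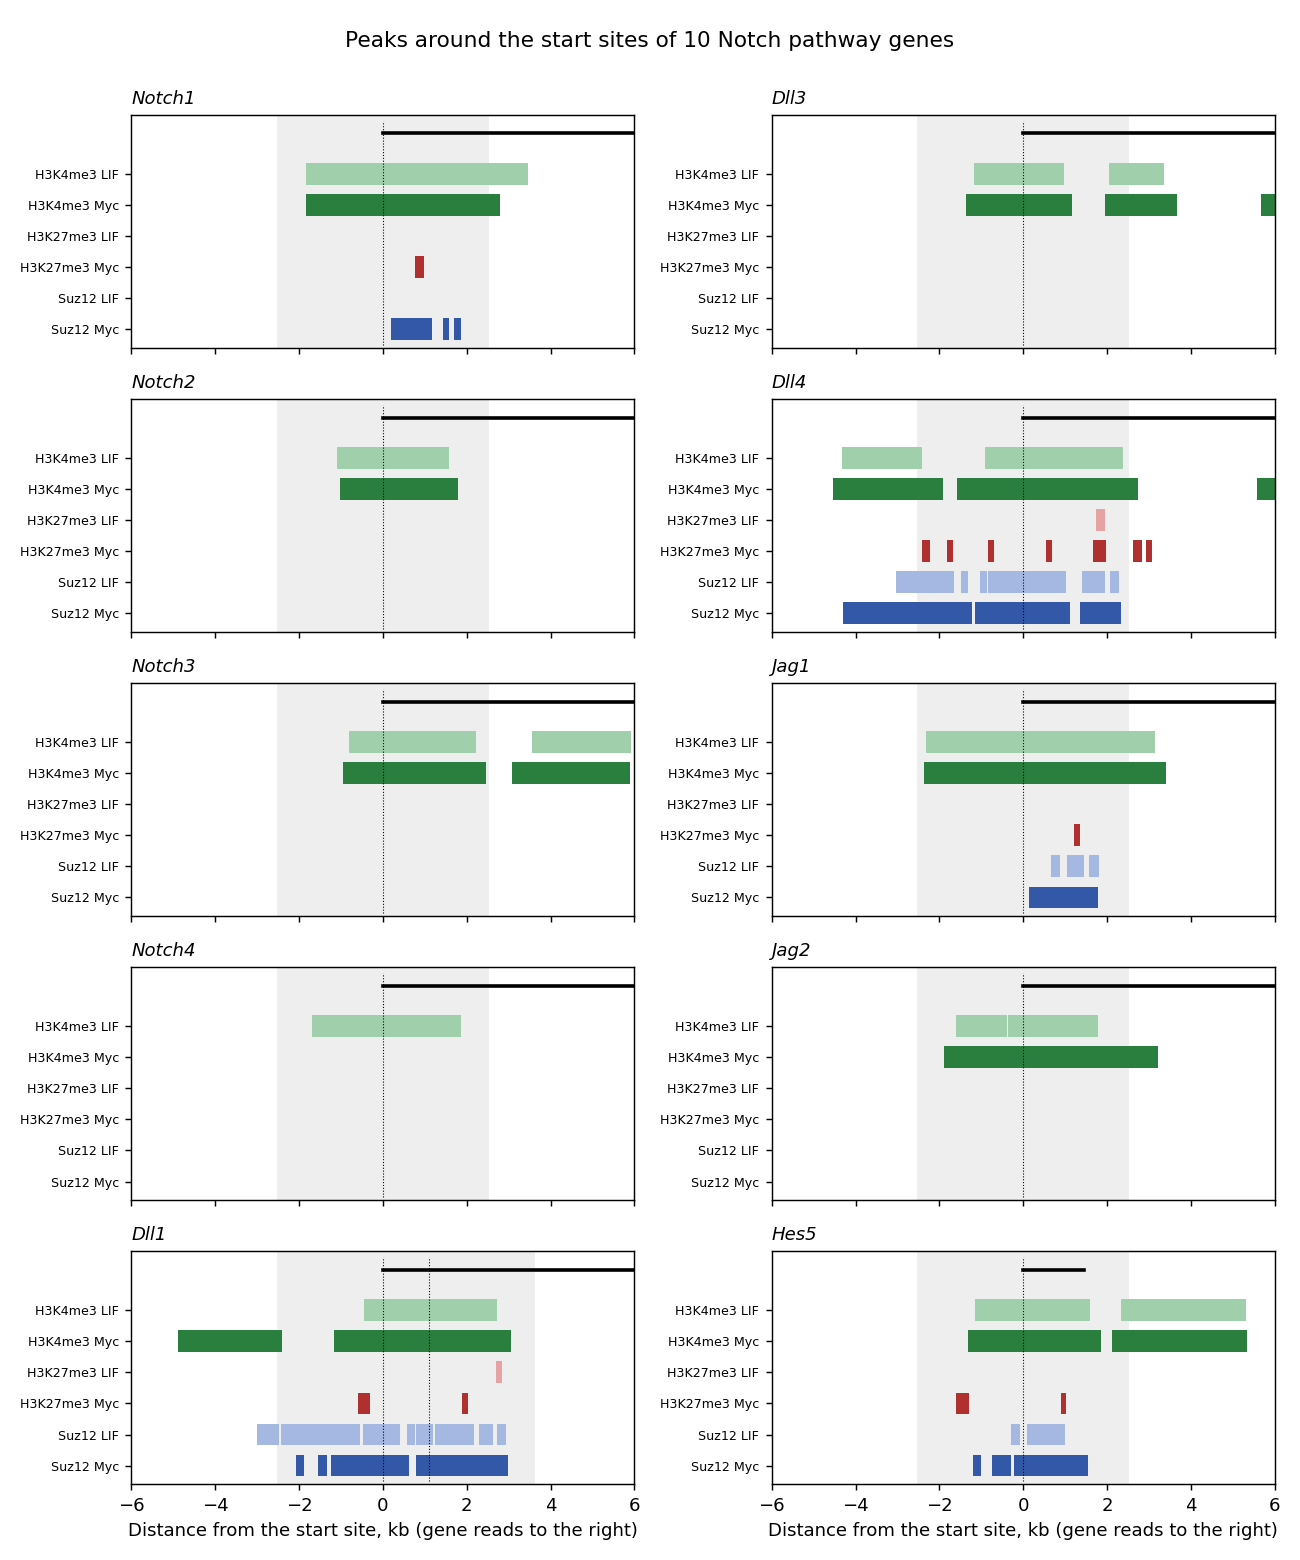
Peaks of the 6 lists within 6 kb of the start site of each Notch gene, with distance in kb on the horizontal axis and the gene reading to the right (black bar, cut at 6 kb); pale bars are LIF-ESC peaks, dark bars Myc-ESC peaks, grey the window that counts as the start, and dotted lines the start sites. H3K27me3 (red) appears at Notch1, Jag1 and Hes5 in Myc-ESCs only, and Dll4 has 1 red bar in LIF-ESCs and 5 that lie within its window in Myc-ESCs.

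Of the ligands, Dll1 and Dll4 carried all 3 signals in both cultures, a pattern shared by 618 genes (2.40% of all). Neither gene kept the LIF-ESC H3K27me3 call with a window of 1000 bp or a score of at least 100. Dll1 did not keep it with 1 start site per gene. The LIF-ESC H3K4me3 and Suz12 calls of both genes remained in these settings. Dll4, the Delta-like ligand of sprouting vessels, lies on chromosome 2 (119325784 to 119335666, plus strand). H3K27me3 covered 217 bp of its window in 1 peak in LIF-ESCs and 945 bp in 5 peaks in Myc-ESCs. The intron 3 peak was the only H3K27me3 peak of the 10 genes called at the same place in both cultures. Its score was 66.73 in LIF-ESCs and, over 317 bp, 138.4 in Myc-ESCs. Suz12 covered 3855 bp in 7 peaks in LIF-ESCs and 4525 bp in 3 peaks in Myc-ESCs, so the peaks were fewer and longer in Myc-ESCs. The top Suz12 scores of Dll4 were 1644.71 and 2847.51, above 96.0% and 95.7% of the peaks of their lists, and were the highest of the 10 genes in both cultures. H3K4me3 at Dll4 covered 3366 bp and 4666 bp. The main H3K4me3 peak, and the Suz12 peak at the start, also cover the start site of Gm14207.

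Dll1, a ligand of neural progenitors and somites, lies on chromosome 17 (15367354 to 15376932, minus strand) and has 2 start sites 1109 bp apart. Its H3K4me3 covered 3164 bp with a score of 279.85 in LIF-ESCs and 4310 bp with a top score of 1298.39 in Myc-ESCs. Suz12 covered 4874 bp in 9 peaks in LIF-ESCs and 4465 bp in 5 peaks in Myc-ESCs, with top scores of 833.02 and 1601.96. Dll1 was thus covered by Suz12 over a slightly shorter length in Myc-ESCs, though its top peak ranked about as high in the list, above 91.6% (LIF-ESCs) and 92.2% (Myc-ESCs) of its peaks. Its H3K27me3 covered 155 and 414 bp. The called peaks did not overlap between the cultures. The LIF-ESC peak started 2690 bp downstream of the outer start site, and those of Myc-ESCs lay from 586 to 320 bp upstream and from 1888 bp downstream. The upstream peak scored 141.91, above 90.2% of the Myc-ESC H3K27me3 peaks. The other Myc-ESC peak scored 53.96, and the LIF-ESC peak 83.5. Peaks of this mark were short in both lists, with a median length of 157 bp (LIF-ESCs) and 162 bp (Myc-ESCs). Whether H3K27me3 at Dll1 extends beyond the called peaks, or lies at separate places in the cultures, was not tested.

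At Jag1, a ligand needed in blood vessels, bile ducts and the inner ear, H3K4me3 was very broad in both cultures, at 4811 and 4879 bp of the 5001-bp window and with a score of 3100 in both. Suz12 covered 873 bp in 3 peaks in LIF-ESCs, with a top score of 119.58. In Myc-ESCs a single peak of 1631 bp with a score of 930.59 overlapped all 3. The 151-bp H3K27me3 peak in intron 2 lay 1200 to 1350 bp downstream of the start, within Suz12 peaks of both cultures. Its score of 53.12 was near the lowest of the list, above only 5.06% of the Myc-ESC H3K27me3 peaks, and the call was absent when the Myc-ESC list was limited to its 3120 highest peaks. The nearest LIF-ESC H3K27me3 peak was 439034 bp away.

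Dll3, a Delta-like protein that acts inside the cell as an inhibitor of Notch signalling, and Jag2 were marked by H3K4me3 alone. At the Dll3 start, H3K4me3 covered 2607 and 3093 bp, with LIF-ESCs first. As at Notch4, an H3K4me3 peak with a higher score than that of the start lay at the 3′ end of Dll3, with scores of 1085.15 and 771.85 beside 271.79 and 450.45 for the top peak at the start. Notch1 also had a 3′ peak, with scores of 1061.53 and 805.69, below those of its start. A Myc-ESC Suz12 peak of 184 bp and a score of 53.11 lay within the 3′ end of Dll3, 7763 bp from its start, and was the only Suz12 peak in the body of the 5 genes without Suz12 at the start. At Jag2, H3K4me3 covered 3371 bp in 2 peaks in LIF-ESCs and 4389 bp in 1 peak in Myc-ESCs. The top scores of Jag2 were 226.52 and 1042.03, above 43.9% and 70.1% of the peaks of their lists. The nearest Suz12 peaks were 51694 and 50993 bp from the Jag2 start.

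Hes5, a repressor that keeps neural progenitors undifferentiated downstream of Notch, lies on chromosome 4 (154960923 to 154962371, plus strand). The H3K4me3 peak over its start was 2735 bp long with a score of 601.18 in LIF-ESCs and 3184 bp with 658.15 in Myc-ESCs. A second H3K4me3 peak that reaches into the window covers the start site of Pank4, and scored 973.71 and 912.92. Suz12 covered 1145 bp in 2 peaks in LIF-ESCs and 2402 bp in 4 peaks in Myc-ESCs, with top scores of 345.12 and 1221.88. No LIF-ESC H3K27me3 peak lay closer to the start than 2671625 bp. In Myc-ESCs 2 peaks covered 440 bp, one from 1615 to 1299 bp upstream with a score of 168.26 and one of 123 bp, scoring 59.6, in exon 3. The upstream score was the highest H3K27me3 score of the 10 genes, above 92.9% of the list. Hes5 and Jag1 shared their pattern of calls, Suz12 in both cultures and H3K27me3 in Myc-ESCs only, with 1215 genes in all (4.72%). Over all the Notch genes, 10 of the 11 Myc-ESC H3K27me3 peaks within the windows overlapped a Suz12 peak of the same culture, and both LIF-ESC peaks did. The exception was the upstream Hes5 peak, which ended 1299 bp before the start, while a Myc-ESC Suz12 peak began 1199 bp before it. No share of all H3K27me3 peaks that overlap Suz12 was computed, so these counts cannot be set against the genome.

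Promoter sequence of the 10 genes was read from the 300-base RefSeq windows (250 bases before to 50 after a start) of GRCm38.p6, which matched all 10 genes and gave 11 promoters. The median number of CpG was 23.0 in these 11 and 12.0 over 23306 promoters. Notch4 had the fewest, 5, and 28.6% of promoters had fewer. Dll3 had 11, and Jag2 had the most, 63, at a GC content of 86.0%. The 5 genes with Suz12 ranged from 15 CpG (the upstream promoter of Dll1) to 41 (Hes5), and the 5 without it from 5 to 63, so the ranges overlapped. A pair of contrasting promoters are given as the 250 bases before the start with CpG in capitals. They are that of Notch4 at chr17:34564045-34564294 (plus strand), where H3K4me3 was called in LIF-ESCs only, and that of Jag2 at chr12:112929496-112929745 (minus strand), which had H3K4me3 but no Polycomb peak.
Notch4: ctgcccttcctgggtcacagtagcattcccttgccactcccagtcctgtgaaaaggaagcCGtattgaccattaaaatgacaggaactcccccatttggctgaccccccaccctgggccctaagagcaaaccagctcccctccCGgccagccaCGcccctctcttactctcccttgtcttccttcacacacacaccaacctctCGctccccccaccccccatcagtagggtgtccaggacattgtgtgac
Jag2: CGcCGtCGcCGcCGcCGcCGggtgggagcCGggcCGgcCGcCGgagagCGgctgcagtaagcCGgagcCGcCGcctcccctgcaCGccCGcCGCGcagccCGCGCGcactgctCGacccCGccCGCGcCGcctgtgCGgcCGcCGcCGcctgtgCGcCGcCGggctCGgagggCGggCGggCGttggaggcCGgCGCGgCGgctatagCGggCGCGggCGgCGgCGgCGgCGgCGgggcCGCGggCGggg
The E-box CACGTG, the preferred site of Myc with its partner Max, was searched on both strands, and 0 of the 11 promoters and 7.95% of all promoters held it. The letters TGGGAA, the core of the site bound by Rbpj, were held on either strand by 1 of the 11, that of Hes5, and by 24.4% of all promoters. The Hes5 promoter held it at 2 places, which start 226 and 82 bases before the start site and lie on opposite strands, and 3.77% of promoters held 2 or more. The 250 bases before the Hes5 start, at chr4:154960673-154960922 (plus strand), are shown with these 2 matches in capitals.
Hes5: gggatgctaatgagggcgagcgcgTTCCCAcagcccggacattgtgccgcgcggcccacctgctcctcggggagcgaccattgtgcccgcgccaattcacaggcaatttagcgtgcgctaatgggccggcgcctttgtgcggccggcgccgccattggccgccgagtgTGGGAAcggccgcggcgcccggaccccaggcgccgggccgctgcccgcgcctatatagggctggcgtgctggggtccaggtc
In Myc-ESCs the longest Suz12 peak of Hes5, of 1523 bp, began 226 bp before the start, and in LIF-ESCs a peak of 222 bp lay from 300 to 79 bp before it. A match is a run of letters only, and no match means that these letters are not in the window.

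**Figure D4:**
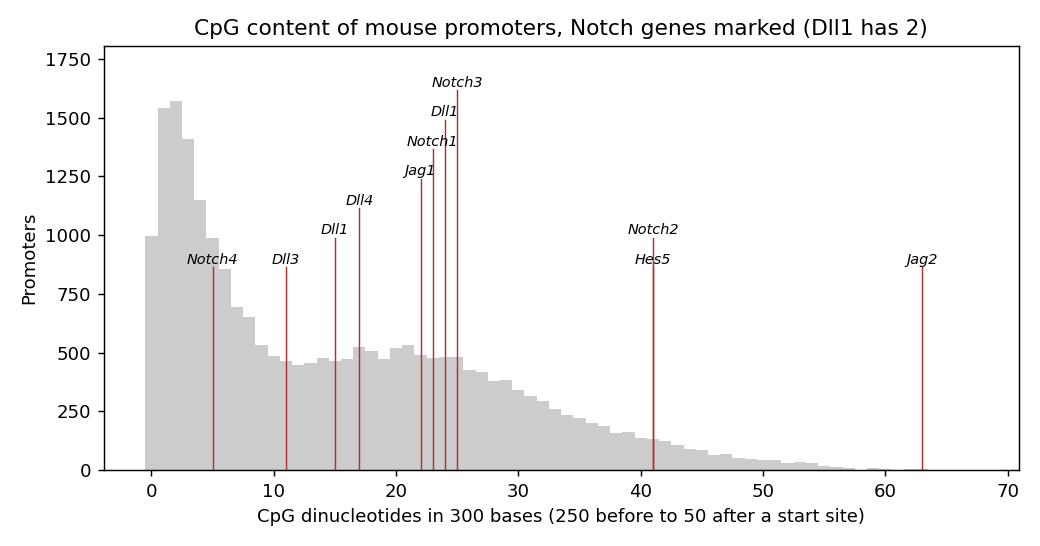
Number of CpG dinucleotides in the 300 bases around the start (horizontal axis) against the number of promoters with that many (grey bars, 23306 promoters), with the 11 promoters of the Notch genes as red lines whose height has no meaning. Notch4 lies at 5 CpG within the low peak of the distribution, Jag2 at 63 in its upper tail, and the others between 11 and 41.

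Over the gene bodies, which span 338189 bp in all, H3K4me3 covered 40819 bp in LIF-ESCs, against 45500 bp in Myc-ESCs. H3K27me3 covered 372 and 1450 bp, and Suz12 6073 and 9462 bp. The receptors held 22800 bp of the H3K4me3 in LIF-ESCs, 20632 bp of it in Myc-ESCs, and the ligands 16570 and 23419 bp. The larger H3K4me3 total of Myc-ESCs thus lay in the ligands. Counting only peaks that score 100 or more, the order of the totals turned, to 37828 bp in LIF-ESCs against 36160 bp in Myc-ESCs. Both LIF-ESC H3K27me3 peaks were in ligand genes, and of the 1450 bp in Myc-ESCs, 1101 bp were in ligands, 226 bp in Notch1 and 123 bp in Hes5.

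The rest of the pathway was described with 5 lists of 67 genes. H3K4me3 lay at 64 (LIF-ESCs) and 65 (Myc-ESCs) of them, beside 62.7% and 63.9% of all genes. With the cultures in the same order, H3K27me3 lay at 8 and 21 (3.84% and 10.8% of all genes). Suz12 lay at 20 and 29 (12.2% and 14.7% of all genes). H3K27me3 was called in Myc-ESCs only at 14 genes, beside 7.69% of all genes, and in LIF-ESCs only at 1, beside 0.738%. Suz12 was found in Myc-ESCs only at 10 of the 67, beside 3.83% of all genes, and in LIF-ESCs only at 1, beside 1.29%. In the lists as deposited, H3K27me3 was thus the mark with most differing calls. Of the 14 genes, 9 had a top Myc-ESC score above the list's median of 65.4, and 2 (Neurl1a and Hey1) scored 100 or more. With H3K27me3 lists of equal length, those 2 were the genes left with the mark in Myc-ESCs only. The mark was then called in LIF-ESCs only at 7 genes (Lfng, Hdac2, Hes2, Hes3, Hes7, Hey2 and Bhlhe41). That setting held Myc-ESC peaks to scores of 100 or more, which 3378 peaks reach. The LIF-ESC list stayed whole, with 339 such peaks, so the score limits of the cultures were unlike. As deposited, Hdac2 and Hey2 had the higher top score in Myc-ESCs, and Lfng, Hes2, Hes3, Hes7 and Bhlhe41 in LIF-ESCs. For Suz12, lists of equal length gave 8 genes found in Myc-ESCs only against 2 in LIF-ESCs only. No share of all genes is given for lists of equal length, so these counts cannot be set against the genome.

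**Figure D5:**
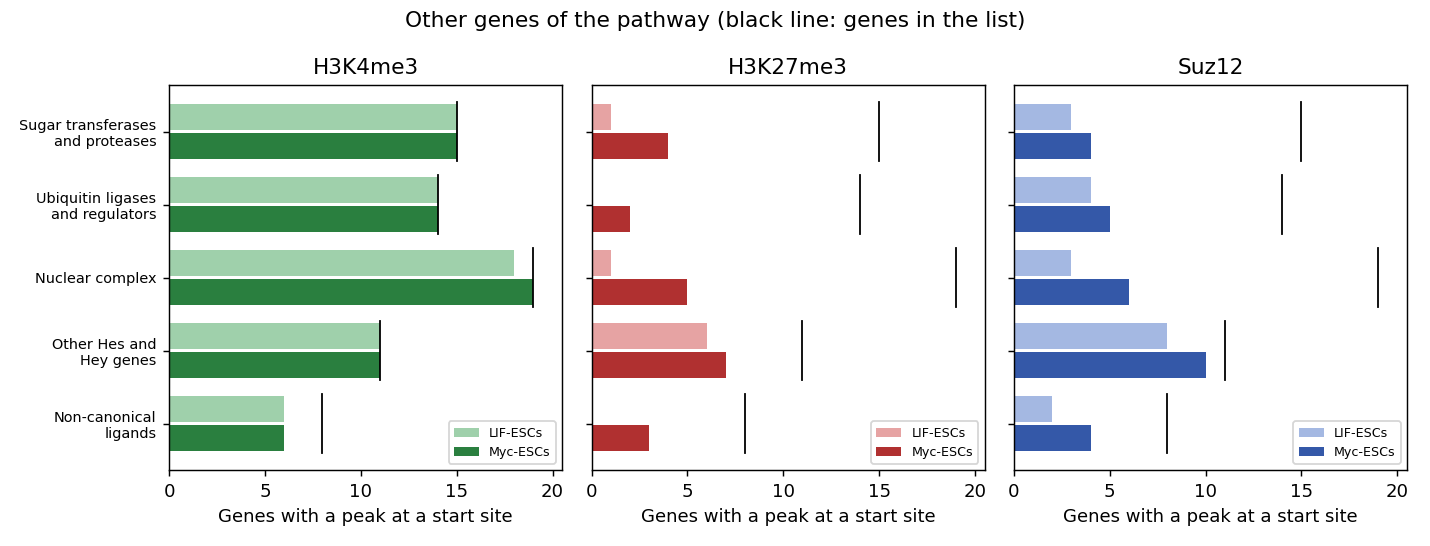
Number of genes with a peak within 2500 bp of a start site in LIF-ESCs (pale bars) and Myc-ESCs (dark bars), for the 5 lists of other pathway genes, with a black line at the number of genes in the list. H3K4me3 bars are nearly equal, and H3K27me3 bars, from lists as deposited, are longer in Myc-ESCs in all 5 lists, by 1 gene in the Hes and Hey family and by 2 to 4 in the others.

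Among 15 sugar transferases and proteases that modify and cut receptors and ligands, H3K27me3 lay at 1 gene in LIF-ESCs, Lfng, and at 4 in Myc-ESCs. Beside these counts stand 3.84% and 10.8% of all genes. Lfng, which adds sugars that change how Notch answers to its ligands, had 186 bp of H3K27me3 in LIF-ESCs against 353 bp in Myc-ESCs. The genes called in Myc-ESCs only (7.69% of all genes) were Furin and Adam10, proteases that cut the receptor, and Aph1b, a subunit of gamma-secretase. Adam10 also had Suz12 in Myc-ESCs only, over 388 bp. Among 14 ubiquitin ligases, endocytic adaptors and regulators, H3K27me3 lay at none in LIF-ESCs and at 2 in Myc-ESCs (10.8% of all genes). These were Neurl1a, a ligase for ligand endocytosis, with 591 bp and a score of 219.53, and Nrarp, a feedback inhibitor of the pathway, with 135 bp and a score of 56.64. Neurl1a had Suz12 in Myc-ESCs only, and Suz12 at Nrarp covered 486 bp in LIF-ESCs against 1733 bp in Myc-ESCs.

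In the nuclear complex of 19 genes, H3K27me3 was called in Myc-ESCs only at Rbpjl, Maml1, Tle1 and Tle3 (7.69% of all genes). Tle1 and Tle3 are corepressors that work with Hes proteins, and both had Suz12 in Myc-ESCs only, over 2941 and 3101 bp. Suz12 was also called in Myc-ESCs only (3.83% of all genes) at Tle2 (185 bp) and at Ctbp2 (360 bp), another corepressor. The top Suz12 scores of Tle2 and Ctbp2 were low, at 52.93 and 53.87, beside 616.91 at Tle1 and 408.77 at Tle3. With Suz12 lists of equal length, the calls at Tle2 and Ctbp2 were absent, while Tle1 and Tle3 kept Suz12 in Myc-ESCs only. The coactivator gene Maml2 went the other way, with 552 bp of Suz12 and no H3K4me3 in LIF-ESCs, and with 6501 bp of H3K4me3 and no Suz12 in Myc-ESCs. The top Suz12 score of Maml2 was low as well, at 73.96 beside a list median of 90.4. The central DNA-binding factor gene Rbpj had H3K4me3 alone, over 9206 and 8711 bp of its windows.

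The Hes and Hey family apart from Hes5 was the list with most Polycomb calls already in LIF-ESCs, with H3K27me3 at 6 of 11 genes and Suz12 at 8 of 11. Of all genes, 3.84% and 12.2% had these marks in LIF-ESCs. In Myc-ESCs the counts were 7 and 10, beside 10.8% and 14.7% of all genes. Hey1 and Hes6 had H3K27me3 in Myc-ESCs only (7.69% of all genes), at Hey1 over 477 bp in 3 peaks with a top score of 143.07. Hes2 had it in LIF-ESCs only, over 152 bp with a score of 57.82. Hes1, which oscillates in ESCs, and Heyl had Suz12 in Myc-ESCs only, over 449 and 562 bp, without H3K27me3. Hes1 thus differed from Hes5, which had Suz12 in both cultures. Of 8 non-canonical ligands, Dlk2, Dner and Cntn1 had H3K27me3 in Myc-ESCs only (7.69% of all genes). Their top H3K27me3 scores were 58.58, 87.57 and 70.85, and none of these calls remained with lists of equal length. Dlk2 and Dner also had Suz12 in Myc-ESCs only, over 1957 and 515 bp (3.83% of all genes).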

How the data were processed

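ChIP-sequencing was carried out with antibodies to H3K4me3, H3K27me3 and Suz12 in both cultures. Per the submitters' processing notes and the study's methods, HiSeq2000 reads were aligned to GRCm38 with Bowtie2 2.2.3, unique reads were kept, and peaks were called with MACS 1.4.2 at default parameters. The authors deposited 6 BED lists whose values are a position and a MACS score per peak. Whether libraries were pooled for a list is not given in the sources used here, and depth is unknown.

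Peaks were read with Python 3.11.15 from 21 chromosomes, and positions count from 1. A gene counted as marked if at least 1 bp of a peak fell into the 2500 bp on either side of the start of any of 45301 curated RefSeq transcripts of GRCm38.p6 (25755 symbols). Length under peaks was the union within this window. The interval code was tested on simulated data. Sequences were read with pysam 0.24.0. No test was run.

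All 10 genes are described. Of the other pathway genes, those whose H3K27me3 or Suz12 call differed between cultures are named, and Lfng, Rbpj and the genes that differed with lists of equal length were added after their values were seen. The genes and lists were taken by name, with earlier results of these data known. The alternative settings were peaks scoring at least 100, lists of equal length (the longer one limited to its highest scores), windows of 1000 and 5000 bp, 1 start site per gene, predicted RefSeq transcripts, an overlap of 100 bp and, added after seeing the data, GENCODE transcripts and, for the other pathway genes, lists of equal length.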

Additional observations from a re-analysis of the deposited data

How the results depend on the processing

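Of 96 recomputed gene counts, 88 stayed within 1.5 times the reported count. These include counts of 0 that stayed at 0, and a count that stayed can hold other genes. LIF-ESC H3K27me3 was called at 2 genes as reported, at 0 with a score of at least 100 or a window of 1000 bp, and at 1 with 1 start site per gene (Dll4). Myc-ESC H3K27me3 was called at 5 genes as reported and at 3 (Dll1, Dll4 and Hes5) with a score of at least 100 or with lists of equal length. Genes with H3K27me3 in Myc-ESCs only numbered 3 as reported and 1 (Hes5) with lists of equal length. The latter setting dropped the calls at Notch1 and Jag1. It kept only Myc-ESC H3K27me3 peaks scoring 100 or more, beside LIF-ESC peaks of any score. With a score of at least 100 there were again 3 genes with H3K27me3 in Myc-ESCs only, but they were Dll1, Dll4 and Hes5. A window of 1000 bp gave 4 (Notch1, Dll1, Dll4 and Hes5), and 1 start site per gene also 4 (Notch1, Dll1, Jag1 and Hes5). With GENCODE transcripts, H3K4me3 in LIF-ESCs only went from 1 gene to 0 and Suz12 in Myc-ESCs only from 1 gene to 2 (Notch1 and Dll3). Among the other pathway genes, lists of equal length, tried after seeing the data, took H3K27me3 in Myc-ESCs only from 14 genes to 2 and in LIF-ESCs only from 1 to 7, and Suz12 in LIF-ESCs only from 1 to 2.

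For the bases of gene bodies under peaks, a score of at least 100 gave 37828 and 36160 bp of H3K4me3 in LIF-ESCs and Myc-ESCs, which turns the order of the cultures, 0 and 317 bp of H3K27me3, and 3925 and 8801 bp of Suz12. With lists of equal length, H3K4me3 covered 39685 bp in LIF-ESCs, and in Myc-ESCs H3K27me3 covered 317 bp and Suz12 9103 bp. Lists exist for no single library, so leaving out a replicate could not be run. No paired analysis was possible because the lists are not divided by replicate and no test was run. The unknown depth limits every statement on a missing peak.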
